A study of Mus musculus with 3 samples.

Results

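The let-7 family was followed as the 5p arms of let-7a, b, c, d, e, f, g and i together with miR-98-5p. These 9 mature miRNAs were chosen by their names among the 627 mature IDs of the table, and all 9 were found. Newborn CD1 mice gave the ovaries, which were kept in culture for 72 h, to postnatal day 3 by the series' title. DEHP, the plasticizer di(2-ethylhexyl) phthalate, was added at 10 or 100 μM in DMSO, and the control (0 μM) had DMSO alone. Small RNA was sequenced from 1 library per concentration, each made from pooled ovaries (120 per group by the study's methods). A difference between libraries is therefore not separated from differences between pools or preparations, no p-value is given, and the intervals cover counting error only. Whole ovary was sequenced, so fewer cells of a type and less RNA per cell cannot be told apart.

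let-7 was first known as a timing gene of the nematode, and its family is conserved across animals. Its members share the seed, bases 2 to 8 of the mature strand, which pairs with target mRNAs such as those of Lin28a, Hmga2 and the Ras genes. Mature let-7 usually builds up as cells differentiate, and LIN28A, a protein of primordial germ cells and stem cells, holds back the processing of many let-7 precursors. The 5p arm is the strand that mostly enters the silencing complex, whereas the 3p arm is mostly degraded.

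The mature sequences were taken from RefSeq (GRCm38.p6) and are shown because members of the family are told apart by few bases outside the seed. The seed is in capitals, and members are in the order of their ratio between 100 and 0 μM DEHP, from the highest to the lowest.
mmu-let-7f-5p: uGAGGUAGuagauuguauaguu
mmu-let-7i-5p: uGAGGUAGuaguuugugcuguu
mmu-let-7g-5p: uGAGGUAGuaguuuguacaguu
mmu-let-7e-5p: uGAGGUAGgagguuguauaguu
mmu-let-7d-5p: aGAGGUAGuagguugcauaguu
mmu-let-7a-5p: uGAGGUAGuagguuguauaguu
mmu-miR-98-5p: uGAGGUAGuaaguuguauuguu
mmu-let-7c-5p: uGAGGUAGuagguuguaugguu
mmu-let-7b-5p: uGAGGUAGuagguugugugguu

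All 9 sequences had 22 bases and the same seed. Counted from 1 at the 5′ end, they differed at 8 positions, and the 36 pairs of members differed by 1 to 6 bases. A single base separated 4 pairs. Relative to let-7a-5p the substitution was A19G for let-7c-5p, U9G for let-7e-5p and G12A for let-7f-5p, and let-7b-5p and let-7c-5p were separated by G17A. Whether the counting allowed mismatches is not given in the sources used here, so a part of the reads of one member can have been counted for its neighbour.

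The deposited counts summed, with the most abundant row of each mature ID, to between 5064602 and 5952274 per library. miR-202-5p, known as a miRNA of the gonads, was present at each concentration with 9799 to 53172 counts. The family held 724787 counts at 0 μM, 742885 at 10 μM and 642573 at 100 μM, which was 13.8% (Wilson 95% interval 13.77% to 13.83%), 14.7% (14.64% to 14.70%) and 10.8% (10.77% to 10.82%) of the library. The family was thus a large part of each library, and a smaller one at 100 μM.

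To set levels side by side, DESeq2's size factors (1.38, 1.35 and 0.546) scaled each library so that the median miRNA came to a common level. After this scaling the family reached 525921 normalized counts at 0 μM, 551123 at 10 μM and 1177231 at 100 μM. The log2 ratio of the pool was 0.07 (95% counting interval 0.06 to 0.07) between 10 and 0 μM, 1.16 (1.16 to 1.17) between 100 and 0 μM, and 1.09 (1.09 to 1.10) between 100 and 10 μM. The last 2 ratios changed sign with total counts as the scaling, to -0.35 and -0.44, so the level of the pool at 100 μM was higher or lower depending on the scaling. In contrast, the shares of the members within the pool do not depend on the scaling between libraries.

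The composition of the pool differed between the libraries. At 0 μM, let-7i-5p held 26.8% of the pool (Wilson 95% interval 26.7% to 26.9%), let-7f-5p 26.0% (25.9% to 26.1%) and let-7g-5p 21.9% (21.8% to 22.0%). These 3 members made up 74.7% of the pool at 0 μM, 67.2% at 10 μM and 91.3% at 100 μM. The other 6 members together held 25.3%, 32.8% and 8.73%.

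At 10 μM the largest shift in share was that of let-7i-5p, from 26.8% to 20.6% (20.5% to 20.7%). let-7c-5p had the largest gain, from 11.9% (11.8% to 11.9%) to 17.2% (17.1% to 17.3%). The shares of let-7f-5p (25.3%), let-7g-5p (21.3%) and let-7e-5p (2.64% against 2.69% at 0 μM) lay within 1 percentage point of those at 0 μM. let-7a-5p was at 8.58% against 7.17%, and let-7b-5p at 2.80% against 2.17%. In all, 7.61% of the pool was distributed differently, taken as 50% of the summed absolute differences of the shares.

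At 100 μM this difference from the 0 μM library was 24.2%, and from the 10 μM library 31.1%. let-7f-5p held 42.9% (42.8% to 43.0%) and let-7i-5p 34.1% (34.0% to 34.2%), so both together made up 77.0% of the family (76.9% to 77.1%), against 52.8% at 0 μM. let-7g-5p was at 14.3% (14.2% to 14.4%). let-7c-5p was at 3.13% (3.09% to 3.18%) and let-7a-5p at 3.07% (3.03% to 3.12%). The smallest shares were those of let-7e-5p (1.48%), let-7d-5p (0.461%), let-7b-5p (0.450%) and miR-98-5p (0.127%). Except for let-7f-5p and let-7i-5p, each member held less of the pool at 100 μM than at 0 μM.

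**Figure D1:**
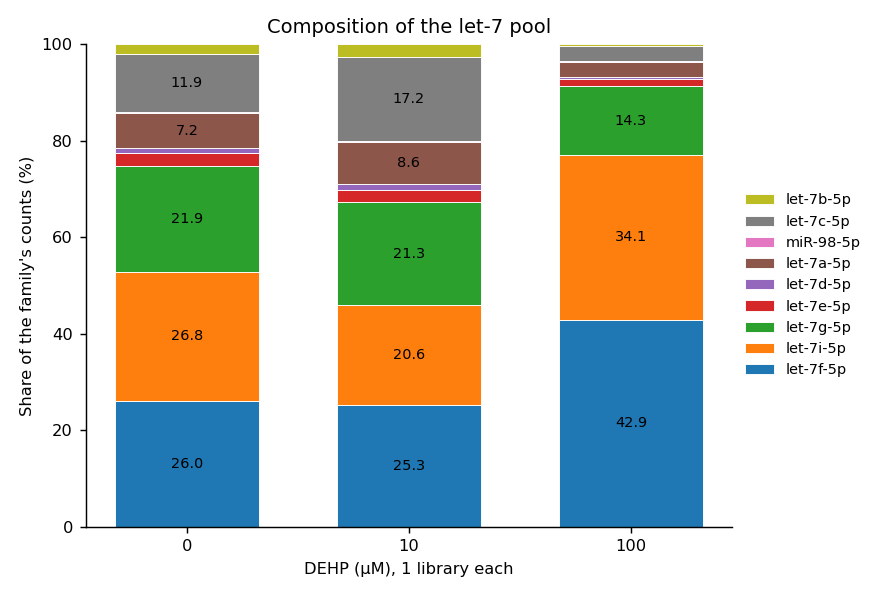
Share of each member in the counts of the let-7 family (%, y axis) in the libraries of 0, 10 and 100 μM DEHP (x axis). let-7f-5p and let-7i-5p (lowest segments) made up 52.8% of the pool at 0 μM and 77.0% at 100 μM, while let-7c-5p went from 11.9% to 3.13%.

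Ratios between members are likewise free of the scaling. let-7f-5p had 2.19 times the counts of let-7c-5p at 0 μM, 1.47 times at 10 μM and 13.7 times at 100 μM. Against let-7a-5p, from which it is separated by a single base, let-7f-5p had 3.63, 2.95 and 14.0 times the counts. The balance between let-7f-5p and let-7i-5p moved less, with ratios of 0.969, 1.23 and 1.26. let-7c-5p had 1.65 and 2.0 times the counts of let-7a-5p at 0 and 10 μM and 1.02 times at 100 μM, where both were nearly level.

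mmu-let-7f-5p is made from 2 hairpins, and its counts were 188443 at 0 μM, 187911 at 10 μM and 275680 at 100 μM. Its normalized counts were 136738, 139405 and 505062. The first 2 libraries were close for this member, and the 100 μM library was higher, with a log2 ratio to 0 μM of 1.89 (95% counting interval 1.88 to 1.89). It ranked 6, 7 and 4 by counts among all miRNAs of the 3 libraries. mmu-let-7i-5p had 194533, 152923 and 219064 counts, or 141157, 113449 and 401338 after scaling. It was the only member with a lower level at 10 than at 0 μM, by a log2 ratio of -0.32 (-0.32 to -0.31), and its ratio at 100 μM was 1.51 (1.50 to 1.52). With total counts as the scaling the ratio of let-7i-5p at 100 μM was -0.01, and that of let-7f-5p 0.37.

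let-7g-5p and let-7e-5p had small ratios in both comparisons. mmu-let-7g-5p had 158793, 158248 and 91731 counts and normalized counts of 115224, 117399 and 168057. Its log2 ratio to 0 μM was 0.03 (0.02 to 0.04) at 10 μM and 0.54 (0.53 to 0.56) at 100 μM. mmu-let-7e-5p had 19489, 19631 and 9530 counts, 14142, 14564 and 17460 after scaling, with log2 ratios of 0.04 (0.01 to 0.07) and 0.30 (0.27 to 0.34). The raw counts of both were lower at 100 μM, and the sign of their ratios there became negative both with total counts (-0.97 and -1.21) and with totals that leave out the 10 most abundant miRNAs (-0.22 and -0.46).

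let-7a-5p and let-7d-5p had ratios near 0 at 100 μM with the scaling used here, and below 0 with totals. The counts of mmu-let-7a-5p were 51973, 63776 and 19754, or 37713, 47313 and 36190 after scaling, with log2 ratios of 0.33 (0.31 to 0.34) at 10 μM and -0.06 (-0.08 to -0.04) at 100 μM. With TMM scaling the last value was 0.02. For mmu-let-7d-5p, with 7335, 8821 and 2964 counts, the normalized counts were 5322, 6544 and 5430. Its ratio at 100 μM, 0.03, had an interval from -0.03 to 0.09, and the levels at 0 and 100 μM were not distinguishable by counting error alone. With total counts the ratios of let-7a-5p and let-7d-5p were -1.58 and -1.49, and with totals that leave out the 10 most abundant miRNAs they were -0.82 and -0.74.

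With the scaling used here, let-7c-5p, let-7b-5p and miR-98-5p had their highest level at 10 μM and their lowest at 100 μM. let-7a-5p had the same order, with its levels at 0 and 100 μM close together (37713 and 36190). mmu-let-7c-5p had 85995, 127819 and 20137 counts, or 62400, 94825 and 36892 after scaling. Its log2 ratio to 0 μM was 0.60 (0.59 to 0.62) at 10 μM, the highest of the family, and -0.76 (-0.78 to -0.74) at 100 μM. mmu-let-7b-5p had 15692, 20781 and 2894 counts and normalized counts of 11386, 15417 and 5302, with ratios of 0.44 (0.41 to 0.47) and -1.10 (-1.16 to -1.05). mmu-miR-98-5p, the least abundant member, had 2534, 2975 and 819 counts, or 1839, 2207 and 1500 after scaling, with ratios of 0.26 (0.19 to 0.34) and -0.29 (-0.41 to -0.18). Between 100 and 10 μM, let-7b-5p was at -1.54 and let-7c-5p at -1.36. The ratios at 100 μM of let-7c-5p, let-7b-5p and miR-98-5p stayed negative under each scaling tried.

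**Figure D2:**
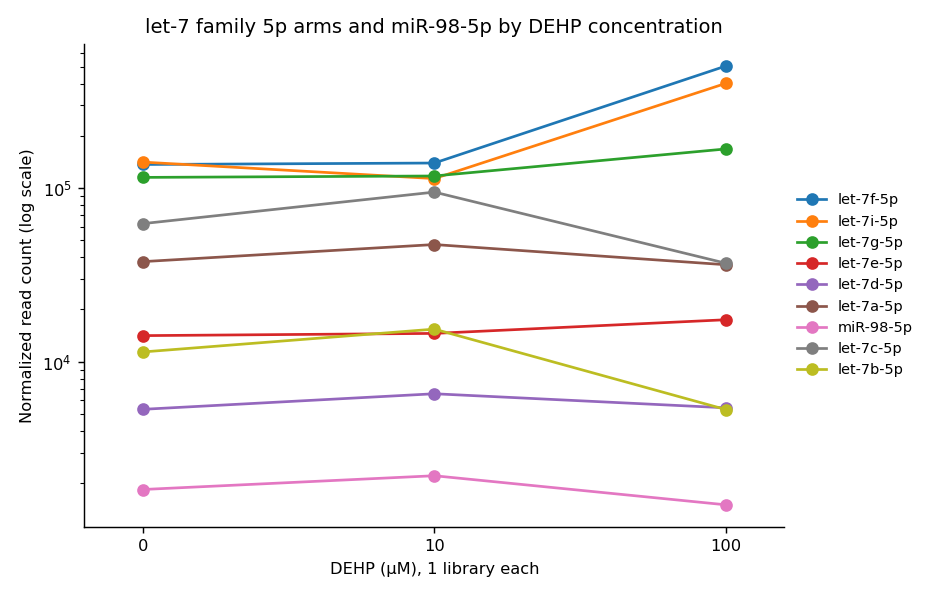
Normalized read counts (log scale, y axis) of the 9 members in the 3 libraries (x axis, DEHP concentration), 1 point per library. At 100 μM let-7f-5p and let-7i-5p stood at 505062 and 401338, apart from the other 7, which lay between 1500 and 168057, and let-7c-5p came down to the level of let-7a-5p.

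In the order of normalized levels at 0 μM, let-7i-5p was first, followed by let-7f-5p, let-7g-5p, let-7c-5p, let-7a-5p, let-7e-5p, let-7b-5p, let-7d-5p and miR-98-5p. At 10 μM, let-7f-5p was first, let-7i-5p was below let-7g-5p, and let-7b-5p was above let-7e-5p. At 100 μM the order was let-7f-5p, let-7i-5p, let-7g-5p, let-7c-5p, let-7a-5p, let-7e-5p, let-7d-5p, let-7b-5p and miR-98-5p. The neighbours let-7c-5p and let-7a-5p (20137 and 19754 counts), and let-7d-5p and let-7b-5p (2964 and 2894), were close together there, with no replicate to give a spread.

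The background was taken from the 587 miRNAs that reached a mean of 10 normalized counts, members included. At 10 μM, 0 of the 9 members had a log2 ratio to 0 μM beyond 1 in either direction, and 6.64% of all miRNAs did (1.53% higher and 5.11% lower). Beyond 2 were 0 members and 0.681% of all miRNAs, each of these on the lower side. The members lay between -0.32 and 0.60 with a median of 0.26, and the median of all miRNAs was 0.02. Above 0 were 8 of 9 members and 52.3% of all miRNAs.

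At 100 μM, 3 of 9 members were beyond 1 from the 0 μM library, and 52.5% of all miRNAs were. Higher by more than 1 were 2 members (let-7f-5p and let-7i-5p) and 26.7% of all miRNAs, and lower by more than 1 was let-7b-5p, with 25.7% of all miRNAs. Beyond 2 were 0 members and 19.8% of all miRNAs (10.4% higher and 9.37% lower). The median of the members, 0.03, was near that of all miRNAs, -0.01, and their standard deviation was 0.98, beside 1.60 over all. Between 100 and 10 μM, 4 of 9 members were beyond 1, with 54.2% of all miRNAs. These were let-7f-5p (1.86) and let-7i-5p (1.82) on the higher side, where 29.5% of all miRNAs lay, and let-7b-5p and let-7c-5p on the lower side, with 24.7% of all. Beyond 2 were 0 members, against 21% of all miRNAs (12.3% higher and 8.69% lower). The range from the lowest to the highest member was 0.92 between 10 and 0 μM, 2.99 between 100 and 0 μM and 3.40 between 100 and 10 μM. Both comparisons with 100 μM use the same 100 μM library.

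The split of the family depended on the scaling, which moved all miRNAs together. For 100 against 0 μM, total counts moved the median over all miRNAs by -1.50 on the log2 scale, and then 0 members were higher and 6 lower by more than 1, beside 5.11% and 63.2% of all miRNAs. Totals without the 10 most abundant miRNAs shifted it by -0.76, with 1 member higher and 3 lower, beside 13.3% and 40.5% of all miRNAs. The order of the 9 ratios was the same under all 7 scalings, since each moves the members by a nearly equal amount.

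**Figure D3:**
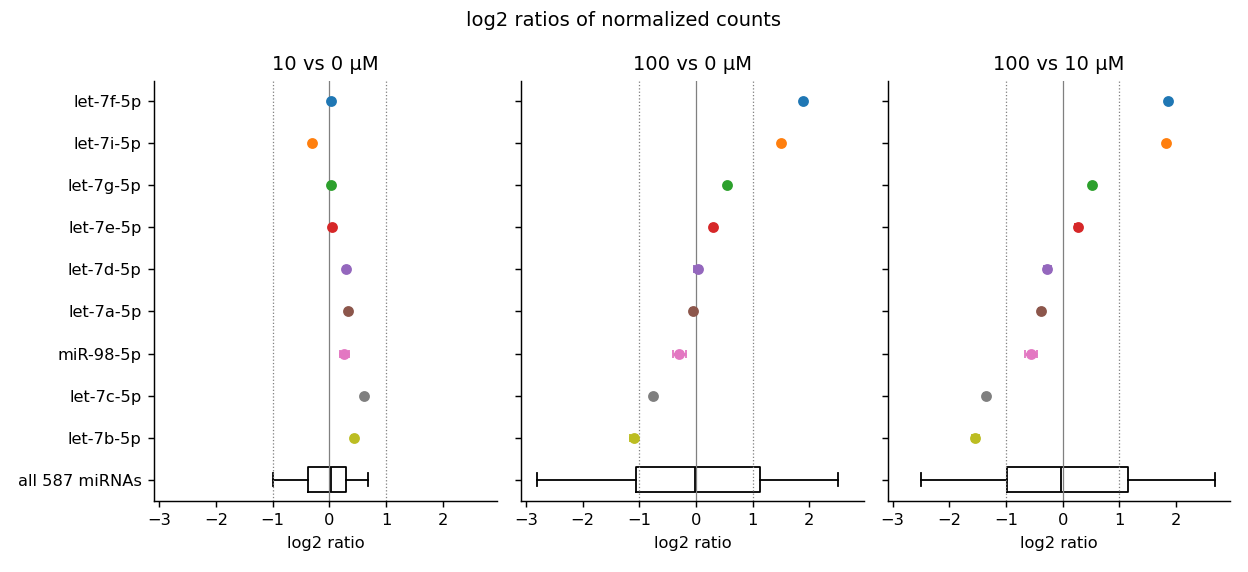
Log2 ratios of normalized counts (x axis) for each member in the 3 comparisons, with bars for the 95% counting interval, which are mostly hidden by the points. The box shows the quartiles of all 587 miRNAs and its whiskers the central 90%, and dotted lines mark 1 and -1. At 10 μM the members lay between -0.32 and 0.60, and at 100 μM between -1.10 and 1.89 with the scaling used here.

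**Figure D4:**
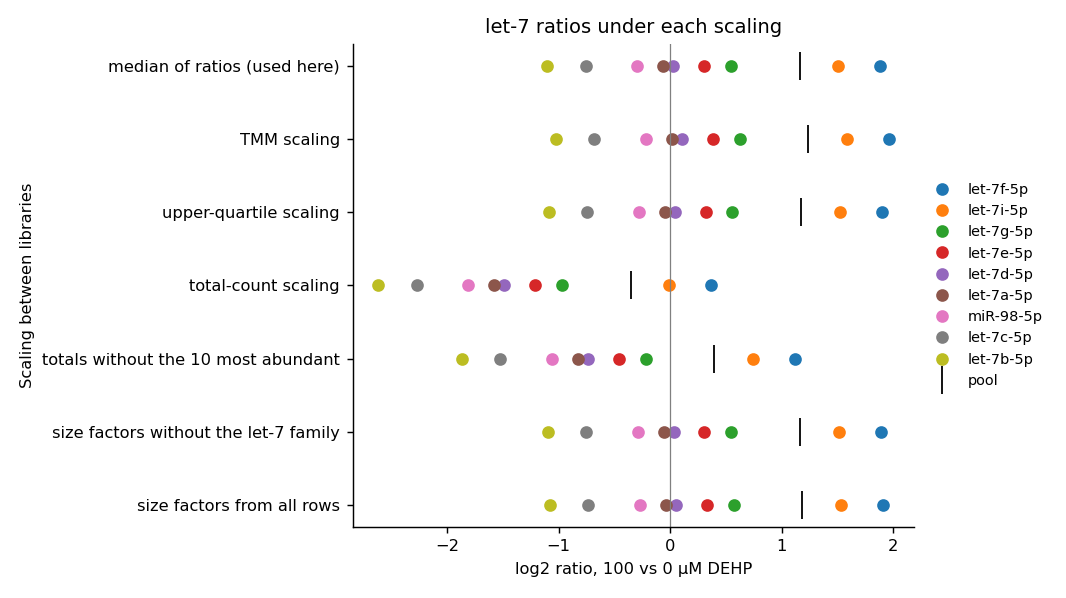
Log2 ratio between 100 and 0 μM DEHP (x axis) of each member (points) and of the pool (bars) under each scaling of the libraries (y axis). The order of the members is kept, while the pool goes from 1.16 with the scaling used here to -0.35 with total counts.

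The deposited table lists a mature miRNA once for each precursor, so that the 9 members filled 12 rows. The second row of let-7a-5p had 51783, 63617 and 19668 counts, that of let-7c-5p 85229, 126580 and 19927, and that of let-7f-5p 184363, 183386 and 271075. These were 97.6% to 99.8% of the more abundant row in the same library. The rows of a member therefore hold mostly the same reads and do not show which precursor the mature strand came from. Their log2 ratios between 100 and 0 μM were within 0.01 of those of the more abundant rows.

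The hairpins of the family lie on chromosomes 9, 10, 13, 15, 16, 17 and X of GRCm38, the assembly that mm10, the build in the submitters' notes, also names. On chromosome 13, let-7a-1, let-7f-1 and let-7d lie within 2261 bases on the minus strand, from 48536012 to 48538272, in exons of the lincRNA gene 6720427I07Rik. The mature strands of these neighbours differed in their ratios at 100 μM, with let-7f-5p at 1.89, let-7d-5p at 0.03 and let-7a-5p at -0.06. let-7f-5p is also made on chromosome X, where let-7f-2 and miR-98 lie from 151912346 to 151913321 in an intron of Huwe1, and miR-98-5p was at -0.29. On chromosome 15, let-7c-2 and let-7b lie from 85706603 to 85707403 in the non-coding gene Lncppara. let-7g lies in an intron of Wdr82 on chromosome 9 (106178840 to 106178927), and let-7i on chromosome 10 (122985640 to 122985724, minus strand).

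The other 3 hairpins share a host transcript with miRNAs of the miR-99/100 and miR-125 families. let-7e lies in an intron of Spaca6 on chromosome 17 (17830352 to 17830444), between miR-99b and miR-125a, and these 3 hairpins span 686 bases. At 100 μM, miR-99b-5p was at a log2 ratio of 2.31 (2.30 to 2.32), let-7e-5p at 0.30 and miR-125a-5p at -0.09 (-0.14 to -0.05). At 10 μM, miR-125a-5p was at 1.26, while let-7e-5p was at 0.04 and miR-99b-5p at 0.41. let-7c-1 lies with miR-99a and miR-125b-2 in an intron of Mir99ahg on chromosome 16. There miR-99a-5p was at -1.34 (-1.36 to -1.32), let-7c-5p at -0.76, and miR-125b-5p, which comes from 2 loci, at -0.51. let-7a-2 lies with miR-100 and miR-125b-1 on chromosome 9, and miR-100-5p was at 1.88 (1.87 to 1.90), beside -0.06 for let-7a-5p. Of these 5 neighbours, 2 were higher and 1 lower by more than 1 at 100 μM, beside 26.7% and 25.7% of all miRNAs.

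The 3p arms of the family were counted for 11 of the 12 hairpins, let-7a-2-3p being the one without a row, and 10 of the 11 passed the minimum. let-7a-1-3p and let-7c-2-3p have the same sequence and the same counts in every row, so they cannot be told apart.
let-7a-1-3p and let-7c-2-3p: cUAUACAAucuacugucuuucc
let-7i-3p: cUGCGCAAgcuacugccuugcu
let-7f-2-3p: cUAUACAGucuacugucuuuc
These are shown for the shared strand and for the arms that moved apart from their 5p partner the most (bases 2 to 8 in capitals).

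let-7i-3p had 221 counts at 0 μM, 127 at 10 μM and 12 at 100 μM. Its log2 ratio between 100 and 0 μM was -2.84 (95% counting interval -3.84 to -2.03), where let-7i-5p was at 1.51. The 5p arm had 880 times the counts of the 3p arm at 0 μM, 1204 times at 10 μM and 18255 times at 100 μM, and these ratios do not depend on the scaling. let-7f-2-3p had 235, 172 and 26 counts, with a ratio of -1.83 (-2.48 to -1.25) at 100 μM. let-7f-1-3p, from the other let-7f hairpin, had 55, 61 and 36 counts and a ratio of 0.72 (0.08 to 1.36), which became -0.78 with total counts. Here the 2 hairpins that give an identical 5p strand had 3p strands with ratios on either side of 0.

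let-7d-3p, the most abundant 3p arm, had 1353, 1679 and 257 counts, a ratio of -1.06 (-1.26 to -0.87) at 100 μM beside 0.03 for let-7d-5p. let-7a-1-3p, counted together with let-7c-2-3p, had 820, 990 and 170 counts, at -0.93 (-1.18 to -0.69). let-7c-1-3p had 98, 152 and 26 counts, and its ratio of -0.57 (-1.26 to 0.06) was close to that of let-7c-5p.

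The opposite arrangement was found for let-7b and miR-98. let-7b-3p had 95, 113 and 70 counts, with a ratio of 0.89 (0.43 to 1.36) beside -1.10 for let-7b-5p. let-7b-5p had 165 times the counts of let-7b-3p at 0 μM, 184 times at 10 μM and 41.3 times at 100 μM. miR-98-3p had 20, 21 and 18 counts, with a ratio of 1.16 (0.18 to 2.18). let-7e-3p, with 167, 205 and 111 counts, was at 0.74 (0.39 to 1.10). The signs of these 3 became negative with total counts. let-7g-3p had 18, 5 and 7 counts, too few for a direction at 100 μM (-0.03, -1.53 to 1.30). Over the 11 hairpins the 5p arm had the higher ratio at 100 μM in 7 and the 3p arm in 4. At 10 μM the numbers were also 7 and 4, but the hairpins were partly different. The 5p arm had the higher ratio only at 100 μM for let-7f-1 and let-7d, and only at 10 μM for let-7b and miR-98. The 5p counts of let-7a, let-7c and let-7f are shared by their hairpins, so these comparisons are not separate.

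**Figure D5:**
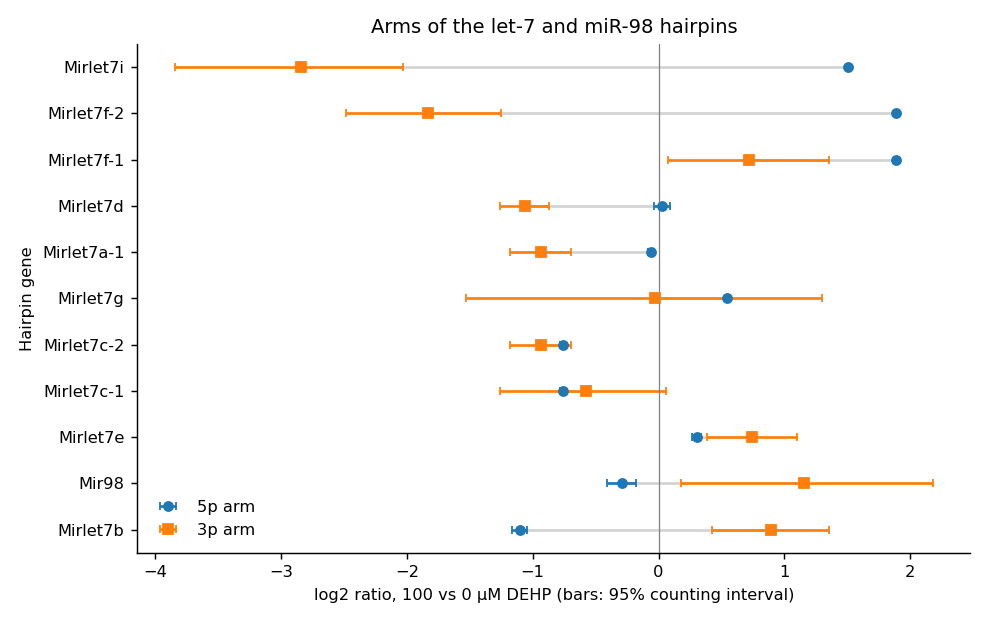
Log2 ratios between 100 and 0 μM DEHP (x axis) of the 5p arm (circles) and the 3p arm (squares) of each hairpin (y axis, ordered by the gap between arms), with 95% counting intervals as bars. let-7i and let-7f-2 have their 3p arms at -2.84 and -1.83, left of the 5p arms, and let-7b has its 3p arm at 0.89, right of its 5p arm. The positions of all points shift together with the scaling, to the left with total counts, and the gaps do not.

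Another 2 names of the table carry let-7 in them. let-7k, the only further miRNA of the table whose RefSeq sequence holds the let-7 seed, had 16, 13 and 1 counts and did not pass the minimum. Its log2 ratio at 100 μM, -2.38, had an interval from -8.05 to 0.02. let-7j had 18553, 17592 and 15128 counts. It does not hold the let-7 seed, and over the length of let-7i-5p it is separated from it by 1 base, G8U, which lies in the seed.
let-7j: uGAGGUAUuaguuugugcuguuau
Its counts were 9.54% of those of let-7i-5p at 0 μM, 11.5% at 10 μM and 6.91% at 100 μM. The log2 ratio of let-7j at 100 μM was 1.04 (1.01 to 1.07), and -0.47 with total counts. Whether reads of let-7i-5p were counted for let-7j was not tested.

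The base at position 12 was looked at after the ratios were seen. let-7f-5p has A there, let-7g-5p and let-7i-5p have U, and these 3 members had the highest ratios at 100 μM, from 0.54 to 1.89. The 6 members with G at this position lay between -1.10 and 0.30. let-7b-5p and let-7c-5p, with G at position 19, had the lowest ratios of the family. Across the 9 members the Pearson correlation of the ratio at 100 μM with GC content was -0.46 and with the number of G bases -0.61 (Spearman -0.40 and -0.57). Over the 497 miRNAs that passed the minimum and had a matched mature sequence, the Pearson correlation with GC content was 0.15. The members share most of their sequence and the same libraries, so these values are descriptions.

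LIN28 proteins are known to bind the loop of let-7 precursors at the letters GGAG. The part between the 2 mature arms of the hairpin was therefore searched for GGAG on the transcribed strand. GGAG was present in 9 of the 12 let-7 and miR-98 hairpins and in 8.07% of the 644 hairpins with both arms in RefSeq. The letters UGAU were present in 3 of the 12 (let-7f-1, let-7b and let-7g) and in 6.06% of the 644. The loops of let-7f-2, let-7e and let-7a-1, with GGAG in capitals, and that of let-7c-2, without it, show the range.
let-7f-2 loop: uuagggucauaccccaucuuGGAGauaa
let-7e loop: gaggaagacacccgaGGAGauca
let-7a-1 loop: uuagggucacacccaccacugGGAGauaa
let-7c-2 loop: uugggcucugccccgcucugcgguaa
GGAG was absent between the arms of let-7b, let-7c-2 and miR-98, and present in let-7c-1, the other hairpin of let-7c-5p. The 3 members with a hairpin that lacks it had the lowest ratios at 100 μM, with let-7b-5p at -1.10, let-7c-5p at -0.76 and miR-98-5p at -0.29. The 6 members with GGAG in every hairpin lay between -0.06 and 1.89. The 3p arms were not split in this way. Of the hairpins without GGAG, let-7b-3p was at 0.89, miR-98-3p at 1.16 and let-7c-2-3p, counted together with let-7a-1-3p, at -0.93. The counted 3p arms of hairpins with GGAG lay between -2.84 (let-7i-3p) and 0.74 (let-7e-3p). The values are set side by side as a description, and whether the letters bear on the ratios was not tested.

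Other families that share a seed give a scale for the spread within the family. A RefSeq sequence was matched for 497 of the 587 miRNAs above the minimum, so families can be incomplete or missing. The miR-30 5p arms, from -3.35 (miR-30e-5p) to -0.18 (miR-30a-5p) between 100 and 0 μM, are not among the families compared here. Among the 5 seeds with at least 5 matched miRNAs, the log2 ratios between 100 and 0 μM had standard deviations from 0.48 to 1.89. That of let-7 was in the middle of these 5 at 0.98. The miR-15/16 family had 0.48 over 6 miRNAs, and the family of miR-17 and miR-106 had 0.65 over 6. At 10 μM the standard deviation of let-7 was 0.27, the second highest of the 5, which went from 0.091 for the seed shared by let-7 3p arms to 0.78 for that of miR-25 and miR-32. The seed of the 3p arms comes from hairpins of the let-7 family itself. Its entries include both let-7a-1-3p and let-7c-2-3p, whose counts are identical, so the same value enters its spread more than once. Nearest to the pool by the Euclidean distance of the 2 log2 ratios to 0 μM, over the 3 libraries and among 365 other miRNAs whose mean reached 100 normalized counts, were miR-34b-3p (distance 0.04), miR-1843b-3p (0.04) and miR-322-3p (0.06). miR-322-3p had 40803, 40984 and 37543 counts. The members themselves lay between 0.52 (let-7i-5p) and 2.30 (let-7b-5p) from the pool, so the pool's ratios describe no single member closely.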

How the data were processed

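Small RNA of cultured mouse ovaries was measured in 3 libraries, 1 per DEHP concentration. The authors cut linkers, dropped reads of low quality, aligned with bowtie2 (mm10 in the submitters' notes) and quantified with miRDeep2. The deposited values are raw counts, 1 row for each pair of mature miRNA and precursor. The miRBase release and the mismatches allowed are not given in the sources used here. Every count at 0 μM was at least 10, so a miRNA seen only after DEHP is not in view.

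Members were matched by mature name, and of several precursor rows of a mature ID the one with most counts was used. Size factors came from DESeq2 1.42.0, other scalings from edgeR 4.0.16 in R 4.3.3, and the rest from Python 3.11.15 with SciPy 1.17.1. Log2 ratios had 0.5 normalized counts added on each side, with exact Clopper-Pearson 95% intervals of the 2 counts. Shares have Wilson intervals. These intervals hold the counting error of reads alone, since each concentration has 1 library. No molecular identifiers mark the reads, so copies of a molecule count as separate reads, and the intervals can be too narrow for molecules. With 1 library per group no count model was tested. Sequences and positions came from RefSeq (GRCm38.p6), with 529 of 627 IDs matched, and host genes from GENCODE M21.

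The named miRNAs are the 9 members, the 3p arms, the 5 neighbours, others with the same seed or with let-7 in the name (let-7j, added after its values were seen, and miR-202-5p likewise) and the 3 nearest to the pool. The members and lists were chosen with earlier results of these data known.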

Additional observations from a re-analysis of the deposited data

How the results depend on the processing

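No paired analysis was possible because each concentration has a single library, which also leaves no replicate to drop. The scaling was the choice that mattered. Between 10 and 0, 100 and 0, and 100 and 10 μM DEHP, the log2 ratio of the pool was 0.10, 1.24 and 1.14 with TMM, 0.13, 1.18 and 1.05 with the upper quartile, 0.088, -0.35 and -0.44 with total counts, 0.11, 0.40 and 0.29 with totals that leave out the 10 most abundant miRNAs, and 0.13, 1.19 and 1.05 with size factors from all rows. It was 0.074 between 10 and 0 μM with size factors computed without the family. With the rows of all precursors summed it was 0.13, 1.20 and 1.08, and the part of the pool distributed differently was 8.39%, 26.1% and 33.4%. Summing counts most reads of let-7a, let-7c and let-7f more than once.

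Members beyond a log2 ratio of 1 numbered 6 between 100 and 0 μM and 7 between 100 and 10 μM with total counts (68.3% and 68.1% of all miRNAs), 7 between 100 and 10 μM with totals without the 10 most abundant miRNAs (60.6%), and 0 and 0 with a threshold of 2 (19.8% and 21%). Here the scalings add 1 common amount to every ratio, and the last change is the threshold's own.

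Signs changed with total counts between 100 and 0 μM for let-7d-5p (-1.49), let-7e-5p (-1.21), let-7g-5p (-0.97), let-7i-5p (-0.0089), let-7b-3p (-0.62), let-7e-3p (-0.77), let-7f-1-3p (-0.78), miR-98-3p (-0.32) and let-7j (-0.47), and between 100 and 10 μM for let-7e-5p (-1.28), let-7g-5p (-1.02), let-7b-3p (-0.92), let-7e-3p (-1.11), let-7f-1-3p (-0.98), miR-98-3p (-0.44) and let-7j (-0.45). With totals without the 10 most abundant miRNAs they changed between 100 and 0 μM for let-7d-5p (-0.74), let-7e-5p (-0.46), let-7g-5p (-0.22), let-7e-3p (-0.018) and let-7f-1-3p (-0.040), and between 100 and 10 μM for let-7e-5p (-0.54), let-7g-5p (-0.29), let-7b-3p (-0.19), let-7e-3p (-0.39) and let-7f-1-3p (-0.26). Values near 0 also changed sign for let-7a-5p and let-7g-3p between 100 and 0 μM with TMM (0.019 and 0.050) and for let-7j between 10 and 0 μM with the upper quartile (0.016) and with size factors from all rows (0.022). Adding 1 normalized count, the row with the lowest total, and the other minimum counts left the pool's ratio within its counting interval or the count of members within 1.5 times. Depth limited the 3p arms most, since let-7i-3p, let-7g-3p and miR-98-3p had 20 counts or fewer at 100 μM.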
